A study of Rattus norvegicus with 4 samples.

Results

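Fibroblasts of the dorsal root ganglion (DRG), the cells that lay down collagen around the sensory neurons and their axons, were examined across the genome in single-cell RNA sequencing of rat ganglia. Members were cell barcodes selected by their own counts of unique molecular identifiers (UMIs). A member had at least 20 UMIs of Dcn, Lum, Col1a1 and Col1a2 together per 10000 UMIs, and stayed under 20 per 10000 for 4 neuron genes (Snap25, Uchl1, Tubb3, Stmn2), under 20 for 4 satellite glia genes (Fabp7, Ttyh1, Sfrp5, Kcnj10), under 10 for 3 endothelial genes (Flt1, Kdr, Emcn) and under 10 for 2 mural genes (Acta2, Myh11). Of 46679 retained barcodes, 4282 met this rule. They numbered 1276 in CPIP 1, 1414 in CPIP 2, 915 in Sham 1 and 677 in Sham 2. The sum of the 4 collagen and proteoglycan genes is called the score here, in UMIs per 10000.

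The CPIP libraries (2) were made from rats given the procedure the labels call CPIP, which in the field stands for chronic post-ischaemia pain, and the Sham libraries (2) from rats given the sham procedure. All animals were male wild-type Sprague-Dawley rats without other treatment per the labels, which give no age. Each library pooled the ipsilateral L4-L6 ganglia of 3 rats, so that a difference between animals of a pool cannot be seen and p-values measure the spread between pools. The tissue was dissociated with dispase, collagenase and papain, and single cells were barcoded on the BD Rhapsody platform, which covers the whole transcriptome. The comparison asks how the ganglion cells of CPIP rats differ from those of sham rats.

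Fibroblasts of peripheral nerve and ganglion secrete fibrillar collagens, small leucine-rich proteoglycans such as decorin (Dcn) and lumican (Lum), and signals that reach neurons, glia and immune cells. Endoneurial fibroblasts lie between single axons, epineurial fibroblasts form the outer sheath, and perineurial and meningeal cells line the borders. Schwann cells, the myelin-forming glia of the nerve, also make some collagen.

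The libraries totalled 62358475 (CPIP 1), 63541024 (CPIP 2), 60885664 (Sham 1) and 64550637 (Sham 2) UMIs, and members contributed 3247550, 4367290, 2246361 and 1816746 UMIs in that order. The median member held 1926 UMIs in CPIP 1, 2185 in CPIP 2, 1757 in Sham 1 and 1968 in Sham 2. Between 1 and 5 barcode sequences were shared by any pair of libraries, and none of these was a member in both.

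The fibroblast label held for the members of high score and not for most members. Few members (79) had a score of 150 to 200, and members were therefore described in 3 ranges, set after the score distribution had been seen. The upper range (score of 200 or more) held 829 members, the middle range (100 to under 200) 373 and the lower range (under 100) 3080. Myelin genes separated the ranges. A summed level of at least 20 UMIs per 10000 of Mbp and Pmp22, which encode proteins of compact myelin, was found in 46 upper-range members (5.55%), in 248 middle-range members (66.5%) and in 2461 lower-range members (79.9%). Over all members this was 2755 barcodes (64.3%). At the threshold itself, 72.95% of the 366 members with a score of 20 to 25 had that myelin level, and so did 63.5% of the 479 barcodes with a score of 15 to 20 that missed only the score minimum.

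**Figure D1:**
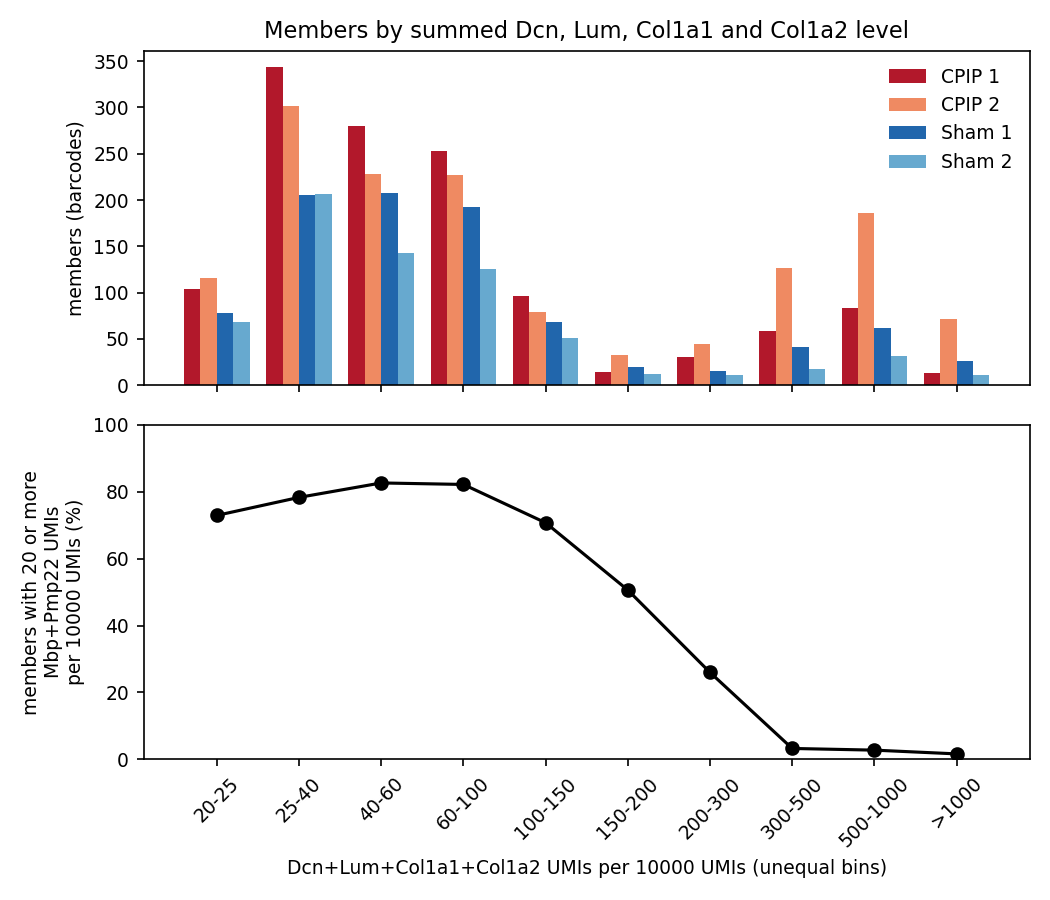
Number of members per library (upper panel, bars) and share of members with 20 or more Mbp and Pmp22 UMIs per 10000 (lower panel, %), by the summed level of Dcn, Lum, Col1a1 and Col1a2 in UMIs per 10000, in unequal bins. Most members lie below 100, where the myelin share is between 72.95% and 82.7%, and fewer lie above 200, where it drops to 26.0% and then to 3.27% or less.

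The genes behind the score differed between the ranges. In the lower range 61.2% of the score's UMIs came from Col1a1 and 38.4% from Col1a2, the genes of the type I collagen chains, while Dcn gave 0.403% and Lum 0.050%. In the upper range Col1a1 gave 62.8%, Col1a2 18.6%, Dcn 15.2% and Lum 3.43%. At least 1 UMI of Dcn or Lum was present in 792 upper-range members (95.5%), in 50 middle-range members (13.4%) and in 44 lower-range members (1.43%). The median score was 564 in the upper range and 42.5 in the lower range, where it rested on a median of 8 UMIs. A total of 106 members, all of the lower range, entered with 2 or fewer UMIs of the 4 genes.

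Shares of barcodes with a UMI were compared after thinning each barcode to 1000 UMIs. Dcn, which the score used and whose shares are therefore a description, was then found in 95.2% of upper-range members (729 of 766, exact 95% interval 93.4% to 96.6%) and in 0.853% of lower-range members (23 of 2697, interval 0.541% to 1.28%). Barcodes with neuron markers, which should lack the gene, gave 0.744%, inside the interval of the lower range, so the lower-range share is not read as expression. Without thinning these shares were 95.5%, 1.27% and 1.26%, at median depths of 3560, 1865 and 4121.5 UMIs. Thinning left out 63 upper-range, 383 lower-range and 4226 neuron-marker barcodes with fewer than 1000 UMIs. Intervals cover counting error only.

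Genes that the rule did not use split the same way. Apod, encoding a secreted lipid carrier, was found at equal depth in 89.0% of upper-range and 2.15% of lower-range members, against 4.03% of neuron-marker barcodes. Myoc, encoding the secreted glycoprotein myocilin, was found in 83.03% and 0.334%, and Pdgfra, the PDGF receptor of mesenchymal cells, in 44.6% and 0.148%. Mbp, encoding myelin basic protein, ran the other way, with 4.96% of upper-range and 79.98% of lower-range members, against 12.2% of neuron-marker barcodes. The fibrillar collagen genes were present in both. Col3a1 was found in 99.7% of upper-range and 51.3% of lower-range members against 4.86% of neuron-marker barcodes, so collagen RNA in the lower range exceeded the background. A further 923 barcodes at equal depth were not members and had the same Mbp and Pmp22 level without the markers of other cell types. Col1a1 was found in 40.1% of them, Col3a1 in 36.5% and Dcn in 0.108% (1 barcode, exact 95% interval 0.00274% to 0.602%). These barcodes lay under the score minimum by selection, which limits their Col1a1 and Dcn, so those 2 shares are a description and no comparison with the lower range.

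**Figure D2:**
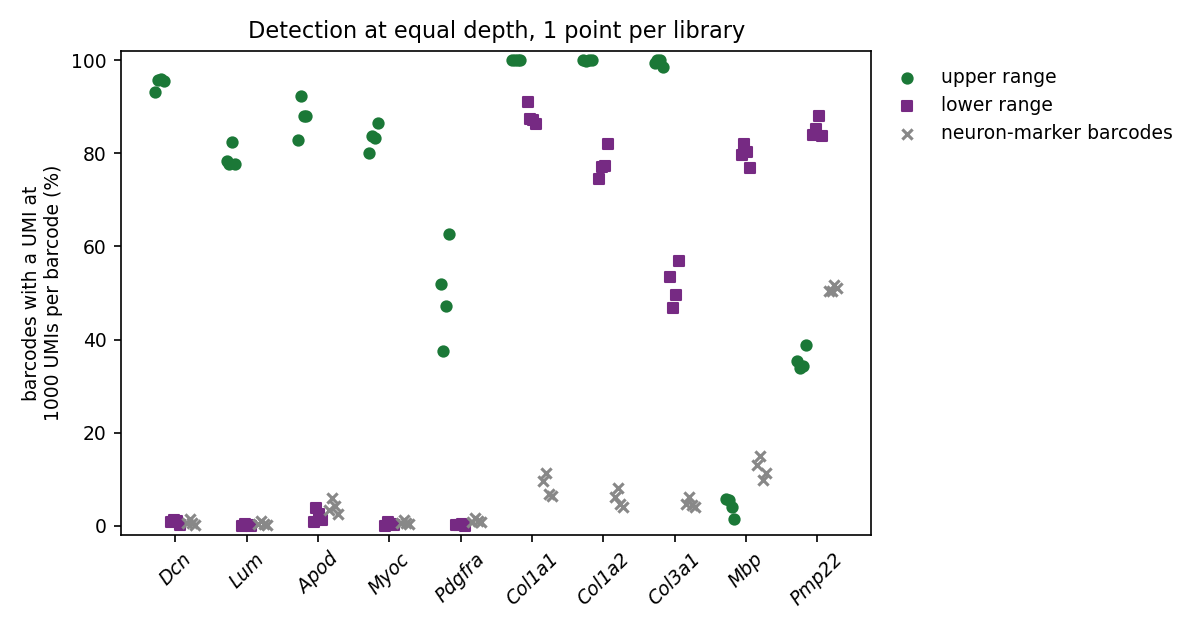
Share of barcodes with at least 1 UMI of a gene after thinning each barcode to 1000 UMIs (%), 1 point per library, for the upper range, the lower range and barcodes with neuron markers. Dcn, Lum, Apod and Myoc mark the upper range, Mbp is most frequent in the lower range, Pmp22 is also found in many neuron-marker barcodes, and Col1a1, Col1a2 and Col3a1 are found in both.

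Relative to the retained barcodes that were not members, the upper range was led by Apod, Dcn, Myoc and Gpc3. Pooled over the 4 libraries, Apod had 71515 CPM (UMIs of the gene for every 1000000 UMIs of those barcodes) in the upper range and 133 CPM in the non-members, Dcn 10378 and 16.2 CPM, Myoc 6154 and 9.57 CPM, and Gpc3, a glypican that binds growth factors at the cell surface, 4270 and 9.63 CPM. Aldh1a1, an enzyme of retinoic acid synthesis, had 1216 and 2.13 CPM. Further leading genes were Lum, Thbs4 (a thrombospondin of the matrix), Col3a1, Col6a1 and Col6a2 (chains of microfibrillar collagen), Fn1 (fibronectin), Col15a1 and Cldn1 (a tight-junction claudin). The lower range was led by myelin and Schwann cell genes. Among them were Bcas1, Gldn, Pou3f1 (a transcription factor of promyelinating Schwann cells), Prx (periaxin), Drp2, Mal and Mbp, which had 7667 CPM in the lower range and 627 CPM in the non-members. All of these genes belong to the cells that the score selected, so the ratios describe the members and were not tested. The 12 satellite glia markers, 4 of which the rule limited, summed to a median of 72.5 UMIs per 10000 in the lower range and 16.7 in the upper range. For the 12 myelinating Schwann cell markers these medians were 127 and 6.59.

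Of the leading genes of the upper range, some were near one level in the 4 libraries and others varied widely. Dcn had 10540 CPM in CPIP 1, 9987 in CPIP 2, 10384 in Sham 1 and 13002 in Sham 2. Lum had 2621 and 2201 CPM in the CPIP libraries and 2432 and 2334 CPM in the Sham libraries. Apod had 62782 and 74743 CPM in the CPIP libraries and 71218 and 74035 CPM in the Sham libraries. None of these 3 genes separated the groups, and the score used the first pair. Pdgfra had 886 and 500.1 CPM in the CPIP libraries and 633 and 1345 CPM in the Sham libraries. Fndc1, a gene of cluster 6 below, had 222 and 1625 CPM in the CPIP libraries and 1405 and 8.20 CPM in the Sham libraries. The groups overlapped for both. Of 14 macrophage markers 12 had a UMI in the upper range, with summed levels of 24.5 and 121 CPM in the CPIP libraries and 14.7 and 16.4 CPM in the Sham libraries, and Cd163 and Cx3cr1 were at 0. Of 12 myelinating Schwann cell markers 11 had a UMI, with sums of 1456 and 1383 CPM in the CPIP libraries and 1293 and 3121 CPM in the Sham libraries.

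Proximal promoters are shown for Col1a2 and Lum, which the score used, and for Apod, the leading upper-range gene that the score did not use. Each is the stretch of 250 bases before the RefSeq transcript start on the GRCr8 assembly, plus strand, 5′ to 3′: Col1a2 at chr4:33518307-33518556, Lum at chr7:34245456-34245705 and Apod at chr11:82935970-82936219. Capitals mark the letters TATAAA and CCAAT on either strand (ATTGG is CCAAT on the other strand).
Col1a2: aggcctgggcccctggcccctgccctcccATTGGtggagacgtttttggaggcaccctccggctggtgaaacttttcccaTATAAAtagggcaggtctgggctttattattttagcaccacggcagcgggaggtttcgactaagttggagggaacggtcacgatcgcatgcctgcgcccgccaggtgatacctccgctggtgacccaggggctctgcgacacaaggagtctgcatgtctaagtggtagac
Lum: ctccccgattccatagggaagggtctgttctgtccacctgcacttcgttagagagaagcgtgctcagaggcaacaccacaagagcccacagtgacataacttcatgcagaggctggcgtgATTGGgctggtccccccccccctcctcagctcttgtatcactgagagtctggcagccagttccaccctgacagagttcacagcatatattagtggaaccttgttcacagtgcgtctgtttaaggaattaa
Apod: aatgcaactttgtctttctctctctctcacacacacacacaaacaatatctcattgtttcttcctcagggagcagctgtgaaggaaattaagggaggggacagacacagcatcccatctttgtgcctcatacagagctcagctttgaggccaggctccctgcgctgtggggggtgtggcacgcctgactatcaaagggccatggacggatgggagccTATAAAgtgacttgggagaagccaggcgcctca
TATAAA was found in the Apod and Col1a2 stretches, beginning 33 and 170 bases before the annotated start, and not in that of Lum. CCAAT was found once each in Col1a2 and Lum and not in Apod, and the AP-1 letters TGANTCA were in none of the 3. Of the 33469 RefSeq promoter windows given, counting the same search on both strands, TATAAA was in 12.9%, CCAAT in 34.0% and TGANTCA in 6.34%, so these matches are descriptions of the stretches and not binding sites.

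Clustering of the 3746 members with at least 1000 UMIs gave 9 clusters, and 3 of them held the upper range. Cluster 4 (520 members, 511 of the upper range) was led by Col9a1, Il33 (an alarmin cytokine), Rbp4 (the plasma retinol carrier) and Crispld2. Col9a1 had a UMI in only 11.0% of its members, Il33 in 89.0%, Rbp4 in 48.5% and Crispld2 in 70.8%. Cluster 6 (195 members, 177 of the upper range) was led by Msln (mesothelin), Fndc1, Igfbp6 and Fn1. Cluster 8 (62 members, 47 of the upper range) was led by Sfrp2 (a secreted Wnt modulator), Smpd3, Aspn (a proteoglycan) and Mfap4. Of the other 6 clusters, cluster 1 (900 members) was led by Prx, Kcna1 and Drp2, cluster 2 (741) by Igfbp3, Itga1 and Hey2, cluster 3 (739) by Gfap, Fam78b and S100a4, cluster 5 (478) by Lyz2, Gbp5 and Acot1, cluster 7 (69) by the cell-cycle genes Top2a, Rrm2 and Mki67, and cluster 9 (42) by Nrg3 and Grik1. Those 6 clusters together held few upper-range members, between 0 and 27 each. In cluster 5 Lyz2 had a UMI in only 4.81% of members, Gbp5 in 64.2% and Acot1 in 76.4%. The summed satellite glia markers had 87.6 UMIs per 10000 in cluster 5 and 86.0 in cluster 1. The summed macrophage markers had 4.23 UMIs per 10000 in cluster 5.

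Col1a1 and Col3a1 were at a like level in the 3 upper-range clusters, and Apod and Igfbp5 were not. Col1a1, a gene of the score that set the upper range, had 40461 CPM in cluster 4, 45805 in cluster 6 and 34332 in cluster 8. Col3a1 had 24053, 23485 and 27176 CPM. Apod had 100944 CPM in cluster 4 and 42110 CPM in cluster 6, and no UMI among the 253088 UMIs of cluster 8, where 3 UMIs would be 11.9 CPM. Igfbp5, which binds insulin-like growth factors in the matrix, ran the other way, with 309 CPM in cluster 4, 8611 in cluster 6 and 33526 in cluster 8.

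Il33, Aldh1a1 and Cxcl1 were highest in cluster 4 of the 3. Il33 had 2203 CPM there, 14.7 in cluster 6 and 387 in cluster 8. Aldh1a1 had 1852 CPM in cluster 4, 564 in cluster 6 and no UMI in cluster 8. Cxcl1, a neutrophil-attracting chemokine, had 3085, 424 and 1466 CPM. Cluster 6 had Fn1 at 15408 CPM, against 1980 in cluster 4 and 2849 in cluster 8.

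Of the 3 clusters, cluster 8 was highest for several genes of the universal, adventitial and epineurial fibroblast lists. Gsn (gelsolin) had 4810 CPM in cluster 4, 2358 in cluster 6 and 19416 in cluster 8. Mfap5, a microfibril protein, had 134, 620 and 3509 CPM, and Dpt (dermatopontin) 56.8, 355 and 1565 CPM. Pi16, a marker of adventitial fibroblasts, had 0.521, 0.701 and 71.1 CPM. Dpp4, a gene of the epineurial and meningeal lists, was among the 10 leading genes of cluster 6. It had 318 CPM there and 15.3 CPM in the other clustered members together. The summed endoneurial list, in which Apod weighs most, had 1057 UMIs per 10000 in cluster 4, 452 in cluster 6 and 16.8 in cluster 8, and the epineurial list had 6.37, 19.8 and 69.4. The meningeal list had 42.97 UMIs per 10000 in cluster 4, 17.1 in cluster 6 and 70.2 in cluster 8, as high there as the epineurial list. The perineurial list had 10.2, 7.09 and 4.62 UMIs per 10000, and 1 of its genes, Cldn1, was among the 10 leading genes of cluster 4.

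**Figure D3:**
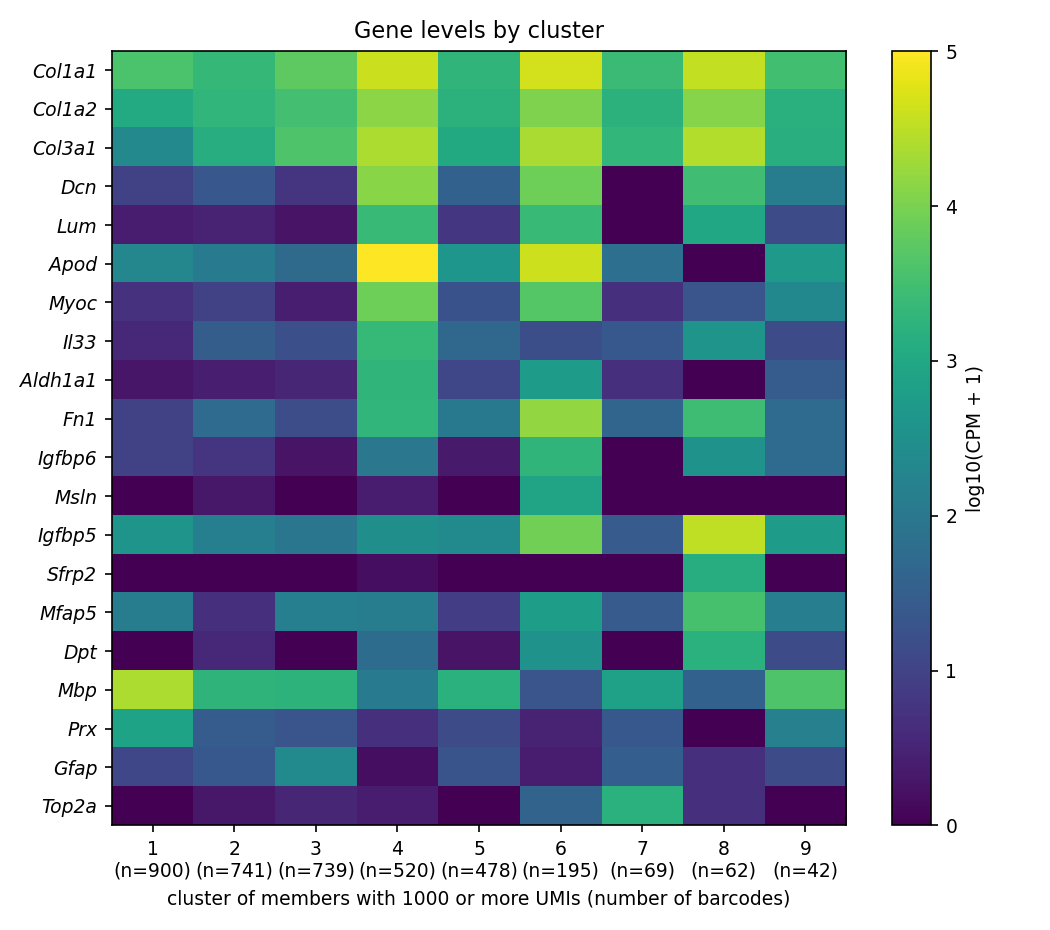
Level of 20 genes (rows) in the 9 clusters of members with at least 1000 UMIs (columns, with their numbers of barcodes), as log10 of CPM plus 1 on the colour scale. Clusters 4, 6 and 8 share high collagen, Dcn and Lum. They were singled out as mostly upper-range members, so their high levels of the score's own genes are a description. Cluster 8 lacks Apod, and the remaining clusters have Mbp above Dcn.

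Members made up a larger share of the retained barcodes in both CPIP libraries. The share was 10.5% in CPIP 1 and 11.8% in CPIP 2, against 8.09% in Sham 1 and 6.03% in Sham 2. The means were 11.1% ± 0.943 in CPIP and 7.06% ± 1.46 in Sham (SD, n = 2 each), a ratio of 1.58, and a two-sided exact permutation test gave p = 0.333, the smallest that 2 against 2 libraries allow. The groups did not overlap, and the lower range and the upper range each showed the same order of groups.

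The upper range alone was 1.52% of retained barcodes in CPIP 1 (185 members), 3.58% in CPIP 2 (429), 1.27% in Sham 1 (144) and 0.632% in Sham 2 (71). CPIP averaged 2.55% ± 1.46 and Sham 0.953% ± 0.454 (SD, n = 2 each), a ratio of 2.68 (exact permutation test, p = 0.333). On the log2 scale this ratio was 1.42, and it was 0.67 without CPIP 2 and 2.01 without Sham 1. CPIP 1 and Sham 1 lay close together, and CPIP 2 lay far above the rest. The lower range was 8.06% and 7.29% of the CPIP libraries and 6.04% and 4.84% of the Sham libraries, a ratio of 1.41 (exact permutation test, p = 0.333). Upper-range members were 14.5% of the members of CPIP 1 and 30.3% of those of CPIP 2, against 15.7% in Sham 1 and 10.5% in Sham 2, so the mix of ranges differed most between the libraries CPIP 2 and Sham 2. These are shares of captured cells, and an unequal yield of the dissociation was not tested.

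**Figure D4:**
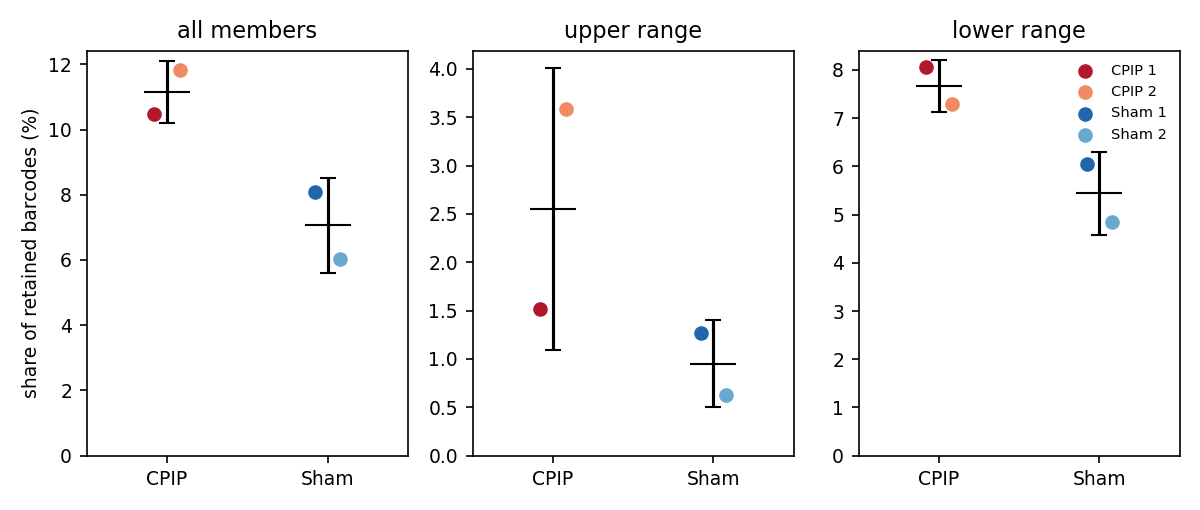
Members, upper-range members and lower-range members as a share of retained barcodes (%), 1 point per library, with CPIP left of Sham. The horizontal lines are means and the error bars SD over 2 libraries; both CPIP points lie above both Sham points in each panel, by the least in the upper range (1.52% in CPIP 1 and 1.27% in Sham 1).

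The shares of clusters 6 and 8 overlapped between the groups, and that of cluster 4 did not. Cluster 4 was 11.6% and 19.95% of the clustered members in the CPIP libraries and 10.6% and 9.59% in the Sham libraries (exact permutation test, p = 0.333), a difference of 5.67 percentage points that was 1.51 without CPIP 2 and 9.84 without CPIP 1. Cluster 6 was 2.40% in CPIP 1 and 10.8% in CPIP 2, against 4.205% in Sham 1 and 0.165% in Sham 2, where it was a single barcode (exact permutation test, p = 0.667), and its difference of 4.40 points was 0.211 without CPIP 2, 2.38 without Sham 2 and 8.59 without CPIP 1. Cluster 8 was 2.22% and 1.36% in the CPIP libraries and 1.71% and 1.16% in the Sham libraries (exact permutation test, p = 0.667), a difference of 0.355 points that was -0.076 without CPIP 1, 0.079 without Sham 2, 0.630 without Sham 1 and 0.786 without CPIP 2. The Sham 1 share of clusters 6 and 8 lay between the CPIP values. Most clustered members lay outside the upper range, and the part of the mix of ranges in these shares was not tested. Cluster 4 held 131 and 250 members in the CPIP libraries, where the upper range held 185 and 429. In the Sham libraries it held 81 and 58 members, where the upper range held 144 and 71.

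Summed over all members, no gene of 10352 tested passed an adjusted p of 0.05 between CPIP and Sham (edgeR's quasi-likelihood test on UMI sums per library with Benjamini-Hochberg adjustment), a called share of 0%. Unadjusted p under 0.05 was reached by 406 genes. Without CPIP 1 the test called 8 genes and without Sham 2 it called 1, and DESeq2 called 5, among them Mgp, Smoc2, Tsc22d1 and A2m. Both CPIP libraries lay above both Sham libraries for 13.5% of the tested genes and below them for 17.9%. The smallest adjusted p was that of Ccn2, the connective tissue growth factor, at 0.837. It had 34.8 and 27.0 CPM in the CPIP libraries against 7.57 and 7.16 CPM in the Sham libraries, a log2 difference of 2.08 (SE 0.26).

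Of the genes with the smallest p, those higher in both CPIP libraries included Mgp, Smoc2 and Serping1. Mgp, the matrix Gla protein that inhibits calcification, had 600 and 606 CPM in the CPIP libraries and 337 and 277 CPM in the Sham libraries, a log2 difference of 1.00 (SE 0.16, edgeR adjusted p = 0.975). Smoc2, a calcium-binding matrix protein, had 307 and 292 CPM against 146 and 95.2 CPM (1.34, SE 0.22, edgeR adjusted p = 0.975), and the groups did not overlap for either gene. Serping1, the C1 inhibitor of complement, had 652 and 720 CPM in the CPIP libraries and 455 and 348 CPM in the Sham libraries. In the upper range alone the order of the libraries was different. Mgp had 2181 and 1250 CPM in the CPIP libraries and 1196 and 2034 CPM in the Sham libraries (log2 difference 0.09, SE 0.34), and Serping1 had 2434 and 1524 CPM against 1542 and 2432 CPM (-0.01, SE 0.30), so that both groups overlapped. In the lower range Mgp had 33.3 and 24.6 CPM against 6.67 and 4.73 CPM, from 10 and 7 UMIs in the Sham libraries. The CPIP 1 value came from 76 UMIs in 13 members, 29 of them in a single barcode. The CPIP 2 value came from 54 UMIs in 11 members, 41 of them in a single barcode.

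H19, an imprinted long noncoding RNA, was also among them. It had 159 and 138 CPM in the CPIP libraries and 4.45 and 35.2 CPM in the Sham libraries. The log2 difference was 3.01 (SE 0.62, edgeR adjusted p = 0.975), and it was 5.04 without Sham 2. H19 had 517 UMIs in 33 members of CPIP 1, 105 of them in a single barcode. It had 603 UMIs in 61 members of CPIP 2, 78 of them in a single barcode. In the upper range it had 663 and 300 CPM in the CPIP libraries and 16.3 and 258 CPM in the Sham libraries, with CPIP 2 near Sham 2. Those lower in both CPIP libraries included Dhh, Pmp2 and Cxcr4. Dhh, a hedgehog ligand of Schwann cells, had 436 and 384 CPM against 553 and 583 CPM, Pmp2, a myelin lipid-binding protein, 172 and 164 CPM against 240 and 265 CPM, and Cxcr4, the receptor of Cxcl12, 39.7 and 37.6 CPM against 65.0 and 63.9 CPM. Their log2 differences were -0.44, -0.55 and -0.71 (SE 0.13, 0.13 and 0.16), and none passed the test. In the lower range alone the groups overlapped for Dhh, with 569 and 686 CPM in the CPIP libraries and 775 and 683 CPM in the Sham libraries, and for Pmp2, with 241 and 308 CPM against 347 and 303 CPM. Cxcr4 stayed apart there, with 44.6 and 41.8 CPM in the CPIP libraries and 77.3 and 74.3 CPM in the Sham libraries. Cxcr4 overlapped in the upper range, with 25.8 and 34.6 CPM against 47.3 and 16.4 CPM, and among members of score 100 or more its log2 difference was 0.0039.

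In the upper range alone, no gene of 6470 tested was called, a share of 0%, and 160 had an unadjusted p under 0.05, while DESeq2 called 0. Without CPIP 1 the test called 57 genes and without CPIP 2 it called 4. Both CPIP libraries were above both Sham libraries for 15.7% of the tested genes and below for 14.6%. Among genes that averaged 32 CPM or more and were higher in both CPIP libraries, the smallest p was that of Tsc22d1, a leucine-zipper gene known to respond to TGF-beta. It had 486 and 536 CPM in the CPIP libraries and 284 and 254 CPM in the Sham libraries, averaging 511 ± 34.9 and 269 ± 21.0 CPM (SD, n = 2 each). The log2 difference was 0.92 (SE 0.21, edgeR unadjusted p = 0.00345, adjusted p = 1), and the groups did not overlap. In cluster 4 alone its levels were 474 and 334 CPM against 280 and 293 CPM. Cluster 6 of CPIP 2 (135 members) held 740 Tsc22d1 UMIs, where the upper range of that library held 1052. In Sham 2 cluster 6 was a single barcode, and the part of the cluster mix in this difference was not tested.

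Plagl1, an imprinted zinc-finger transcription factor, was also higher in both CPIP libraries of the upper range. It had 1200 and 1505 CPM in the CPIP libraries and 782 and 841 CPM in the Sham libraries (log2 difference 0.74, SE 0.22, edgeR adjusted p = 1). Cluster 6 of CPIP 1 (27 members) held 369 Plagl1 UMIs, 97 of them in a single barcode, where the upper range of that library held 930. The part of the uneven cluster 6 shares in this difference was not tested.

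Igfbp3, a further binding protein of insulin-like growth factors, had 68.4 and 87.1 CPM in the CPIP libraries and 40.8 and 28.7 CPM in the Sham libraries of the upper range (log2 difference 1.11, SE 0.32, edgeR adjusted p = 1). Within cluster 4 it had 64.8 and 78.6 CPM against 12.7 and 14.9 CPM, the Sham values resting on 4 and 3 UMIs. Most Igfbp3 UMIs lay in the lower range, and over all members Igfbp3 had 171 and 169 CPM in the CPIP libraries and 149.6 and 304 CPM in the Sham libraries, with Sham 2 highest. Cox7a2l, which assembles respiratory chain complexes, had 91.6 and 103 CPM against 49.0 and 36.9 CPM in the upper range (1.14, SE 0.28). Ccn2 had 117 and 55.5 CPM in the CPIP libraries and 14.7 and 32.8 CPM in the Sham libraries (1.99, SE 0.53), from 9 and 8 UMIs in the Sham libraries, and the difference passed without CPIP 2 (2.46, edgeR adjusted p = 0.000853). Of its 91 UMIs in the upper range of CPIP 1, 30 came from a single barcode. Cluster 8 held 72 Ccn2 UMIs in CPIP 1 and 27 in CPIP 2, against 10 in Sham 1 and 9 in Sham 2.

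Genes lower in both CPIP libraries of the upper range included Tbx18, Klf2 and Thbd. Tbx18, a T-box factor of mesenchymal progenitors, had 186 and 148 CPM in the CPIP libraries and 242 and 353 CPM in the Sham libraries of the upper range (log2 difference -0.82, SE 0.25, edgeR adjusted p = 1). Klf2, a zinc-finger transcription factor, had 226 and 231 CPM against 320 and 480 CPM (-0.79, SE 0.24). Thbd, the anticoagulant receptor thrombomodulin, had 262 and 143 CPM against 308 and 615 CPM (-1.19, SE 0.39), which passed without CPIP 1 (-1.61, edgeR adjusted p = 0.0251). For each of the 3 genes Sham 2 was the highest library. Within cluster 4 the groups were also apart, with Tbx18 at 210 and 187 CPM in the CPIP libraries against 343 and 422 CPM in the Sham libraries, Klf2 at 223 and 294 against 505 and 477 CPM, and Thbd at 213 and 203 against 327 and 403 CPM. Sema3c, a secreted axon guidance ligand, had 124 and 143 CPM against 215 and 312 CPM in the upper range (-0.95, SE 0.25) and 41.9 and 30.8 CPM against 54.0 and 39.8 CPM in cluster 4, where CPIP 1 and Sham 2 crossed.

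**Figure D5:**
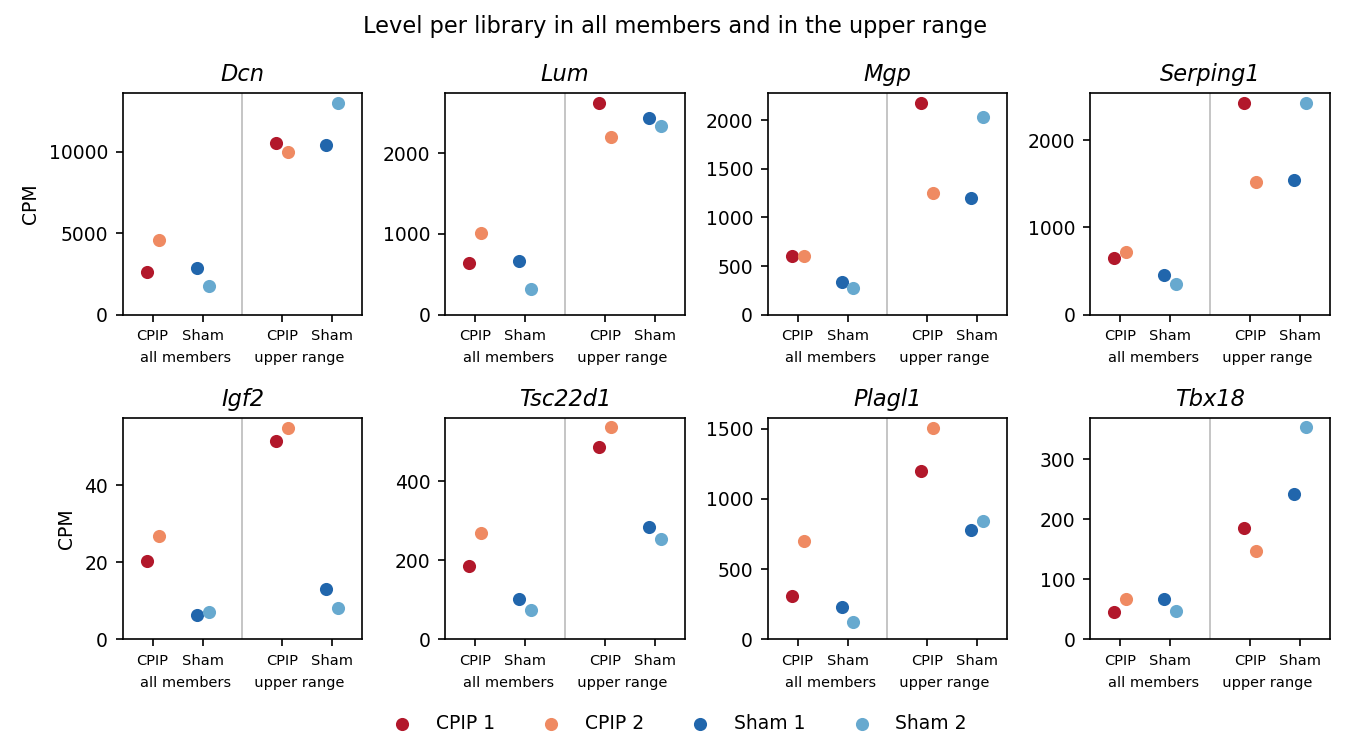
CPM per library of 8 genes in all members (left of each panel) and in the upper range (right of each panel), with CPIP left of Sham and 1 point per library. Mgp and Serping1 separate the groups in all members and overlap in the upper range, Tsc22d1, Igf2 and Plagl1 are higher in both CPIP libraries in both sets, and Tbx18 is lower in both CPIP libraries in the upper range and overlaps in all members.

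The structural matrix lists gave no called gene in the upper range. All 6 tested fibrillar collagen genes had a log2 difference below 0, with a median of -0.17, where the 6470 tested genes had a median of 0.00 and 3277 positive values. Col1a1 had 36718 and 45018 CPM in the CPIP libraries and 45382 and 38742 CPM in the Sham libraries (-0.04, SE 0.23), and Col3a1 21400 and 24140 against 27063 and 22993 CPM (-0.13, SE 0.22), so the libraries overlapped. Of 8 small leucine-rich proteoglycan genes 2 were positive (median -0.31), and Ogn (osteoglycin) had 1613 and 859 CPM against 1051 and 2424 CPM. The fibrillar collagen list holds Col1a1 and Col1a2, and the proteoglycan list holds Dcn and Lum. The score that set the upper range used these 4 genes, of which 1 was positive (median -0.11), so the counts of both lists are a description. Of 16 network and other collagens 10 were positive (median 0.16), of 15 collagen processing genes 11 (0.08), of 37 elastic fibre and matrix glycoprotein genes 16 (-0.05), and of 25 proteases and inhibitors 13 (0.01). Fn1, highest in cluster 6 of the 3 clusters, was at 3082 and 8945 CPM in the CPIP libraries and 9209 and 1866 CPM in the Sham libraries.

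Over all members the same matrix lists leaned to CPIP, again with 0 genes called. Positive values numbered 6 of 8 fibrillar collagens (median log2 difference 0.31), 7 of 8 proteoglycans (0.53), 15 of 17 collagen processing genes (0.47) and 29 of 38 matrix glycoproteins (0.40), against 5320 of all 10352 tested genes (0.01). Col1a1 had 11188 and 21946 CPM in the CPIP libraries and 14715 and 7510 CPM in the Sham libraries over all members (0.61, SE 0.44). The score used Col1a1, Col1a2, Dcn and Lum, genes of the fibrillar collagen and proteoglycan lists. Their levels over all members are therefore tied to the mix of ranges by construction. Upper-range members were 14.5% and 30.3% of the members of the CPIP libraries and 15.7% and 10.5% of those of the Sham libraries, and the part of that mix in the counts of these lists was not tested.

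Growth factor lists were next. Of the 10 tested genes of the insulin-like growth factor system, 7 were positive in the upper range (median 0.36) and 8 over all members (0.61). Igf1 had 1513 and 753 CPM in the CPIP libraries and 1151 and 1460 CPM in the Sham libraries of the upper range, Igfbp5 3070 and 5542 against 5277 and 9003 CPM (-0.71, SE 0.37), and Igfbp7 5620 and 3173 against 2664 and 3728 CPM, so each overlapped. Of 22 TGF-beta, BMP and activin pathway genes 12 were positive in the upper range (median 0.04), and over all members 21 of 28 (0.14). Tgfbr2, the type II TGF-beta receptor, had 951 and 985 CPM against 992 and 1111 CPM in the upper range, and Fstl1, a secreted BMP modulator, 2024 and 2088 against 2331 and 2572 CPM (-0.25, SE 0.20). The PDGF, FGF and VEGF list had 4 of 11 positive (-0.03), the Wnt list 4 of 12 (-0.15), and the activated fibroblast list 12 of 17 (0.32) in the upper range. Cthrc1, of the last list, had 273 and 312 CPM in the CPIP libraries and 313 and 90.2 CPM in the Sham libraries.

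Among signals to neurons and immune cells, 4 of 12 tested cytokine and chemokine genes were positive in the upper range (median -0.14) and 17 of 20 over all members (0.35). Il33 had 1649 and 892 CPM in the CPIP libraries and 1203 and 2371 CPM in the Sham libraries of the upper range (-0.49, SE 0.38). Cxcl1 had 3433 and 1239 CPM against 2003 and 2600 CPM (0.01, SE 0.43), and Ccl2, a monocyte chemokine, 1075 and 536 against 965 and 751 CPM (-0.11, SE 0.33). CPIP 1 was above CPIP 2 for each of these 3 genes. The complement and coagulation list had 6 of 14 positive (-0.05), the interferon list 8 of 16 (0.01), the antigen presentation list 2 of 5 (-0.10), and the neurotrophic and guidance list 5 of 11 (-0.09).

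Receptors and metabolic genes gave no call either. The list of ion channels and pain-related receptors had 9 of 16 positive in the upper range (median 0.31), with both CPIP libraries above both Sham libraries for 7 of the 16 and below for 0, where all tested genes gave 15.7% above and 14.6% below. F2r, the thrombin receptor, had 114 and 138 CPM in the CPIP libraries and 106 and 53.3 CPM in the Sham libraries (0.58, SE 0.33), and Il6st, the shared receptor of the IL-6 family, 573 and 509 against 539 and 730 CPM. Of the retinoid and prostaglandin genes 5 of 10 were positive (0.04). Aldh1a1 had 1374 and 1094 CPM in the CPIP libraries and 1280 and 1534 CPM in the Sham libraries (-0.19, SE 0.21). Crabp2, a retinoic acid binding protein, had 69.7 and 95.2 CPM against 47.3 and 41.0 CPM (0.90, SE 0.31, edgeR adjusted p = 1).

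Marker lists of the nerve compartments showed no called gene. In the upper range 4 of 13 endoneurial genes were positive (median -0.18), 4 of 8 epineurial genes (-0.01), 5 of 8 perineurial genes (0.41) and 3 of 10 meningeal genes (-0.41). Sox9, an endoneurial transcription factor, had 480 and 334 CPM in the CPIP libraries and 504 and 763 CPM in the Sham libraries (-0.64, SE 0.27). Immediate early genes, which dissociation also induces, were positive for 11 of 29 (-0.09), and Jun had 1339 and 1210 CPM against 1252 and 2125 CPM. Heat shock genes were positive for 8 of 16 (0.05).

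In the lower range no gene of 9192 tested was called, a share of 0%, with 367 at an unadjusted p under 0.05 and 0 called by DESeq2. Leaving out 1 library called 80 genes (CPIP 1), 15 (CPIP 2), 76 (Sham 1) or 31 (Sham 2). Of all 9192 genes tested in the lower range 4695 (51.1%) had a positive log2 difference, with a median of 0.004. Of the 11 tested myelinating Schwann cell markers 10 were positive (median 0.20). Their summed levels of 41413 and 48327 CPM in the CPIP libraries and 52215 and 31664 CPM in the Sham libraries overlapped. All 6 tested macrophage markers were positive (median 1.25), with summed levels of 120 and 227 CPM against 82.0 and 64.8 CPM. Red cell markers stood apart in CPIP 2, with summed levels of 11.8 and 509 CPM in the CPIP libraries against 6.67 and 6.75 CPM in the Sham libraries. The parts of these cell types in the lower-range differences were not tested. Cycling-cell genes were negative for all 12 tested (median -0.76), at summed levels of 120 and 210.5 CPM in the CPIP libraries and 214 and 367 CPM in the Sham libraries, where CPIP 2 and Sham 1 were nearly equal.

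The CPIP effect in members was set against that in the other retained barcodes of the same libraries. For 2 of 15546 tested genes (0.0129%), Igf2 and Mgp, the difference passed an adjusted p of 0.05 (edgeR quasi-likelihood interaction test with library terms), and 764 had an unadjusted p under 0.05. The count was 308 without CPIP 1, 32 without CPIP 2 and 1 without Sham 1. Igf2, which encodes an insulin-like growth factor, had 20.3 and 26.8 CPM in members of the CPIP libraries against 6.23 and 7.16 CPM in members of the Sham libraries. In the other barcodes it had 10.3 and 14.2 CPM in the CPIP libraries against 38.2 and 17.9 CPM in the Sham libraries. The difference of the 2 effects was 3.07 on the log2 scale (SE 0.32, edgeR adjusted p = 0.00448), made of a higher level in members and a lower one elsewhere.

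The Igf2 counts were small and came from few members. They were 66 UMIs in CPIP 1 and 117 in CPIP 2, against 14 in Sham 1 and 13 in Sham 2, and 23 and 33 members of the CPIP libraries had any, against 11 and 12 members of the Sham libraries. Cluster 8 held 40 of these UMIs in 5 members of CPIP 1 and 37 in 4 members of CPIP 2, of which 33 came from a single barcode, against 1 UMI in Sham 1 and 0 in Sham 2, where the cluster had 13 and 7 members. In the upper range Igf2 had 51.6 and 55.0 CPM in the CPIP libraries against 13.1 and 8.20 CPM in the Sham libraries (2.20, SE 0.38, edgeR adjusted p = 1). Without Sham 1 the interaction was 2.36 and did not pass (edgeR adjusted p = 0.190).

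For Mgp the difference of the effects was 1.16 (SE 0.13, edgeR adjusted p = 0.00448). The other barcodes had 32.5 and 37.5 CPM in the CPIP libraries against 44.2 and 32.6 CPM in the Sham libraries, and the levels in members are those given above. Mgp was found in 187 and 316 members of the CPIP libraries against 105 and 67 members of the Sham libraries, and 158 and 285 of these CPIP members against 98 and 62 of these Sham members belonged to the upper range. The call was lost without Sham 1 (1.11, adjusted p = 0.190) and without Sham 2 (1.21, adjusted p = 0.384). It was also lost with members of score 100 or more (0.55, adjusted p = 0.818), with a mitochondrial limit of 10% (0.37, adjusted p = 1) and without barcodes of Schwann cell or leukocyte markers (0.45, adjusted p = 1), all from the same edgeR test. Cdh5, an endothelial cadherin, came next with 2.98 (SE 0.43, edgeR adjusted p = 0.0602) from 33 and 95 UMIs in members of the CPIP libraries against 8 and 3 UMIs in those of the Sham libraries, and it passed without CPIP 1 (3.32, edgeR adjusted p = 1.33e-14) and without CPIP 2 (2.45, edgeR adjusted p = 0.000188).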

How the data were processed

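For each of 4 libraries the authors deposited a matrix of UMI counts, raw and not normalized, as the whole numbers in it show. Aligner, annotation, build and cell calling: not given in the sources used here. All libraries list 25629 features, 3852 of them without a symbol, and no barcode held fewer than 500 UMIs. Near-identical copies of a gene may share UMIs.

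Barcodes with 200 or more genes and at most 25% mitochondrial UMIs were retained, and members were chosen on UMIs per 10000. Doublets were kept in the analysis. Scrublet marked 2, 255, 206 and 171 barcodes in CPIP 1, CPIP 2, Sham 1 and Sham 2, and since it failed in CPIP 1 the top 5% of scores there (604 barcodes) were removed in the alternative without doublets. Shares of barcodes with a UMI were compared after thinning to 1000 UMIs. Clusters came from scanpy 1.11.5 (Python 3.11.15; 2000 variable genes, 20 components, 15 neighbours, Leiden resolution 0.5).

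UMI counts were summed per library and tested with edgeR 4.0.16 (R 4.3.3; quasi-likelihood, TMM, default low-count filter, Benjamini-Hochberg over all tested genes, threshold 0.05). Log2 differences are CPIP over Sham. Each SE was derived as the absolute log2 difference divided by the square root of edgeR's F statistic. It is not a standard error that edgeR fits, and the p-values come from the F test. CPM are UMIs scaled to 1000000 in the set, with SD over 2 libraries. Alternatives were DESeq2 1.42.0, its size factors, no low-count filter, a replicate block, other member thresholds and each library left out. Shares were compared with two-sided exact permutation tests.

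The members, the 42 gene lists (718 of 747 symbols in the files) and the marker lists were chosen with earlier results of these data known. The ranges of the score and their fits were added after seeing the data. Named genes were the 4 rule genes, per direction the 10 genes of smallest p that averaged 32 CPM or more and had the CPIP libraries on one side of the Sham libraries, up to 4 members of highest CPM per list, the 20 leading genes, up to 5 leading genes per cluster, and per direction the 3 genes of smallest p in the interaction. The text prints a part of them, and Dpt and Pi16 were chosen after their values were seen. Some named genes are not reported here, and the myelin level was defined after the data had been seen. Promoter sequences are from RefSeq (GRCr8), which gave no entry for Dcn or Col1a1.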

Additional observations from a re-analysis of the deposited data

Results flagged for a closer look

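Both genes called in the interaction test are listed here because the CPIP effect in members differed from the effect in the other barcodes of the same libraries. For Igf2 the difference of the effects was 3.07 on the log2 scale (edgeR adjusted p = 0.00448), higher in members of both CPIP libraries and lower in the other barcodes of both. For Mgp it was 1.16 (edgeR adjusted p = 0.00448), higher in members of both CPIP libraries, while in the upper range alone the groups overlapped. The parts that cluster 8 (for Igf2) and the share of upper-range members (for Mgp) have in these differences were not tested.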

How the results depend on the processing

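With 2 libraries per group a single library decided most counts of called genes, and the cause of each change below was not tested. Leaving out each library in turn called 0 to 8 genes over all members, 0 to 57 in the upper range (57 without CPIP 1), 15 to 80 in the lower range and 1 to 308 for the difference of the CPIP effect (308 without CPIP 1), where the lone library of a group is assumed to vary like the others. Without the low-count filter 226, 32 and 122 genes were called over all members, in the upper range and for the difference, and DESeq2 called 5 over all members. The difference was called for 80 genes at a score of at least 40, for 35 at a score of at least 100, for 20 without Schwann or leukocyte markers and for 4 with doublets removed. The replicate numbers share only a number, with a correlation of deviations of -0.29 over all members and -0.32 in the upper range, and the replicate block called 0 genes over all members, 0 in the upper range and 3 in the lower range. The share of members kept its direction under every alternative run. For the Sfrp2-Aspn cluster the difference of shares ran from -0.076 to 0.786 percentage points when a library was left out, and it was -0.087 with members of any UMI total. The log2 difference of Cxcr4 over all members was 0.0039 at a score of at least 100, and the fitted interaction of Rgs1 was 8.28 there and 9.86 without Schwann or leukocyte markers, values that give no size or bound because the Sham members of both sets have no Rgs1 UMI. Of 1012 medians of lists under an alternative, 154 moved. Depth limits genes with few UMIs in the upper range of Sham 2, which held 243818 UMIs.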
